A study of Mus musculus with 10 samples.

Results

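Chemokines are small secreted or membrane-anchored proteins that draw leukocytes along a gradient, and chemokine receptors are the seven-pass membrane proteins that read them. Most receptors couple to inhibitory G proteins, whereas the atypical receptors bind and remove ligands without that coupling. In the colon, the family places IgA-secreting cells, T cells and macrophages in the mucosa at rest and brings in neutrophils and monocytes during inflammation. The genes described here are the 61 chemokine ligand and receptor genes, chosen by name, of 24525 genes in the expression table. Of these, 39 encode ligands and 22 encode receptors. The name rule used no measured value, although earlier results of these data were known when the members were chosen.

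The series holds 10 RNA-seq libraries from male C57BL/6 mice (C57BL/6N in the growth notes), 5 from colorectal tumours and 5 from the adjacent normal tissue. The treated mice were 7 weeks old at the start of the study and received 1 intraperitoneal dose of the carcinogen azoxymethane (AOM) at 12.5 mg/kg. They then drank 2% DSS (dextran sulfate sodium, an agent that damages the epithelial lining of the colon) for 5 days followed by 16 days of tap water, in 3 such cycles. Tissue was taken 10 weeks after AOM. Adjacent tissue therefore comes from AOM/DSS-exposed mice as well, and the untreated mice of the study are not among the libraries analysed here. The titles number the libraries 1 to 5 in each group, but every library carries an identical mouse number in its source label, so the count of animals behind them is not settled and p-values measure the spread between these samples. Both groups are whole tissue, in which fewer cells of a type and less RNA per cell cannot be told apart.

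Levels are FPKM (fragments scaled to transcript length and to the mapped total), which can be compared between genes. Changes are differences of log2(FPKM + 1) between tumour and adjacent tissue, tested with limma, and they understate the change of genes at low levels. Total FPKM ran from 462009 to 484712 per library, and 11981 to 13171 genes reached 1 FPKM. Epithelial RNA was plain in both groups: Epcam, an epithelial surface protein, averaged 964 FPKM in adjacent tissue and 776 FPKM in tumours. Of 13 colon epithelium markers, 12 fell (92.3%) and 1, Krt18, rose (7.69%). Some fell much further than Epcam: Aqp8 averaged 365 FPKM in adjacent tissue and 4.46 FPKM in tumours, and Slc26a3 252 and 4.51 FPKM. Muc2 went from 1353 to 231 FPKM. Cdx2 went from 68.4 to 14.9 FPKM, with 58.95 FPKM in tumour 2. The tumours were far from the adjacent tissue across the whole table, with 76.5% of 13016 tested genes changed at an adjusted p under 0.05. Rises made up 57.2% of tested genes and falls 19.3%, and the median change over them was 0.35 in log2. When each library's median was subtracted, rises and falls were 34.5% and 33.3%, so small rises below depend on that shift.

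Of the 61 genes, 41 reached a mean of 1 FPKM and were tested: 30 ligands and 11 receptors. In tumours 27 rose (65.9%, against 57.2% of all tested genes), 4 fell (9.76%, against 19.3%) and 10 did not pass. Of the rises, 5 (Ackr1, Ccl3, Ccl4, Ccl12 and Ccr7) had passed the filter only through the tumours, with an adjacent mean under 1 FPKM. Of the falls, 1 (Xcl1) had passed it only through adjacent tissue. For those genes the filter itself favours a difference, so the shares are a description. The median change of the 41 was 1.14, beside 0.35 over all tested genes. The counts became 24 higher and 6 lower with the medians subtracted, and 23 and 8 after quantile normalization, where rises took 56.1% of the members and 36.6% of all genes. All 5 tumours were above all 5 adjacent libraries for 21 of the 41 (51.2%, against 46.5% of tested genes), and all below for 3 (7.32%, against 14.3%). Receptors and ligands split unequally: 10 of 11 receptors rose (90.9%, against 57.2% of all tested genes) and none fell. Of these receptors, Ackr1 and Ccr7 had passed the filter only through the tumours. The receptor share also depended on scaling. With the medians subtracted Ccr7 and Cxcr6 lost their calls, and Ccr10 passed as lower. After quantile normalization Ccr2, Ccr7 and Cxcr6 lost theirs, and Ccr10 again passed as lower. Among ligands 17 of 30 rose (56.7%, close to the 57.2%) and 4 fell (13.3%, against 19.3%). The difference between these shares was not tested. Summed receptor FPKM was 16.1 to 35.3 in adjacent tissue and 62.8 to 95.6 in tumours. Summed ligand FPKM was 334.8 to 463.1 in adjacent tissue and 444.2 to 680.7 in tumours, which overlap.

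**Figure D1:**
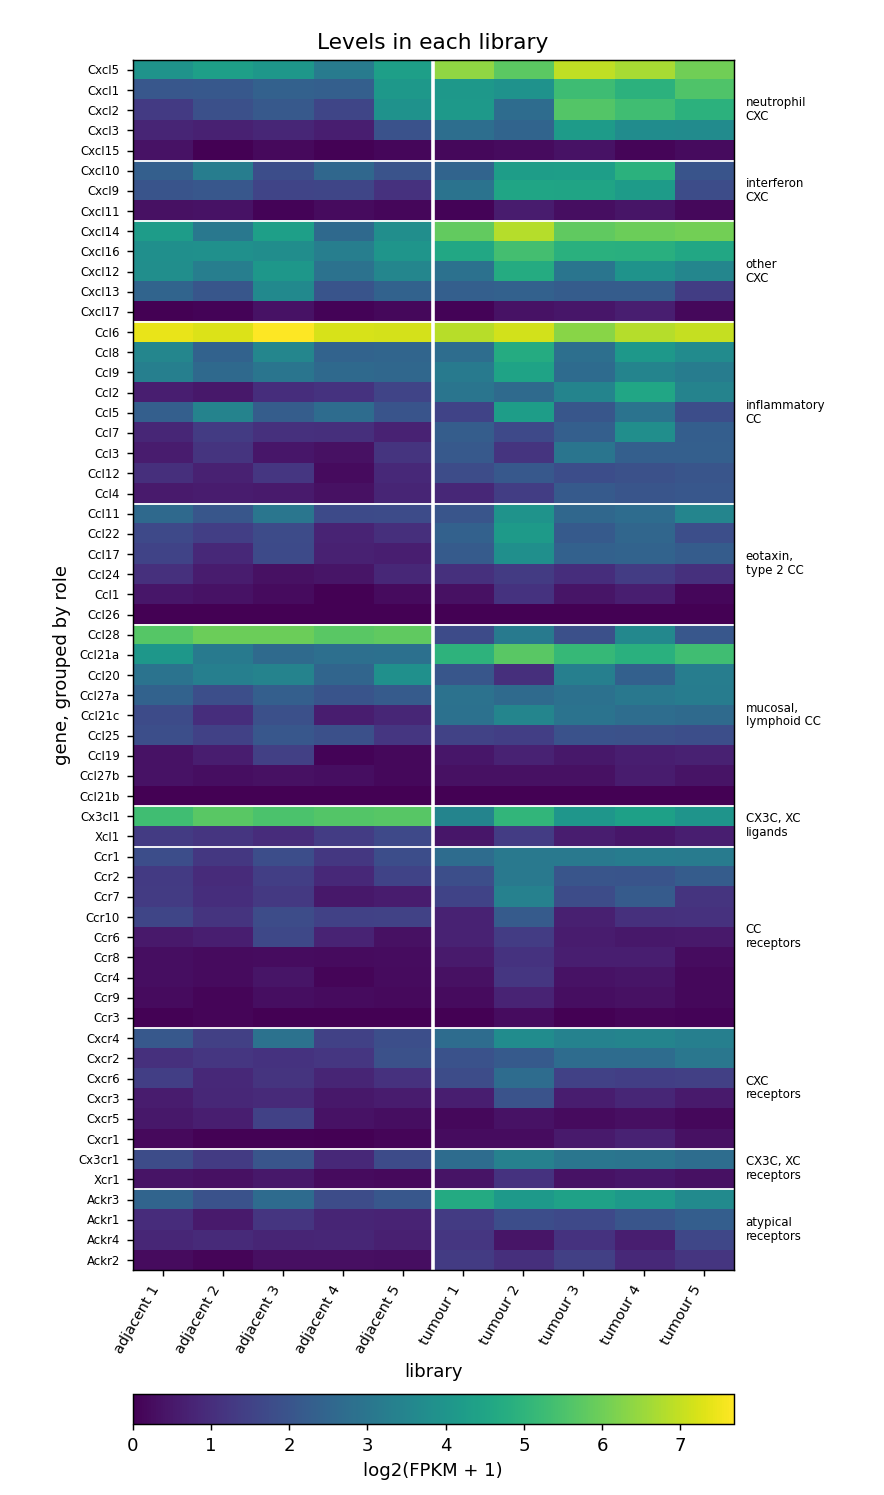
Heatmap of log2(FPKM + 1) for 60 of the 61 chemokine and receptor genes (rows, grouped by role) in the 10 libraries (columns, adjacent then tumour). Yellow is high and dark blue is low. Ccl28 and Cx3cl1 are brighter in the adjacent columns, Cxcl5, Cxcl14 and Ccl21a in the tumour columns.

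The ligand makeup of the tissue changed its leaders. Ccl6, a rodent CC chemokine that signals through Ccr1, was the most abundant ligand in both groups, at 41.1% ± 3.52 (SD, n = 5) of ligand FPKM in adjacent tissue and 20.4% ± 4.83 in tumours. Ccl28 ranked second in adjacent tissue with 14.0% ± 1.55 and ranked 22 in tumours with 0.903% ± 0.545. Cx3cl1 went from 11.9% ± 2.14 to 3.10% ± 0.952. Cxcl5 went from 3.82% ± 1.02 to 15.2% ± 5.35 and took the second rank in tumours, followed by Cxcl14 with 12.1% ± 2.76 from 3.04% ± 1.29. Ccl21a, at 6.46% ± 1.21 from 2.07% ± 1.08, was the next. These ranks are of group means, and single tumours differed. Cxcl5 exceeded Ccl6 in tumour 3 only (121.65 against 78.05 FPKM), and Cxcl14 exceeded Cxcl5 in tumours 2 and 5 only. Shares sum to a fixed total, so a fall of one ligand raises the others. Among receptors the order by FPKM was the same at the top of both groups: Ackr3, Cxcr4, Ccr1 and Cx3cr1. Ccr1 and Cx3cr1 lay within each other's SD in both.

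**Figure D2:**
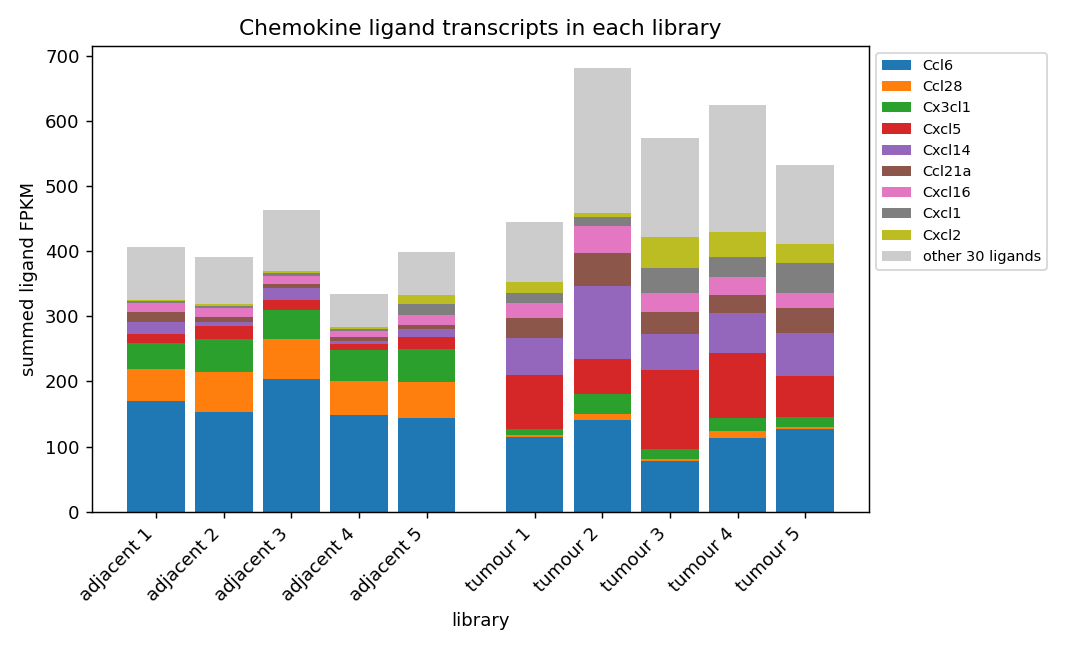
Stacked bars of ligand FPKM in each library, with 9 ligands drawn on their own and the other 30 pooled. Ccl6, Ccl28 and Cx3cl1 fill most of the adjacent bars, and Cxcl5, Cxcl14 and Ccl21a widen in the tumour bars.

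The neutrophil-recruiting CXC ligands rose. These proteins carry the ELR motif, bind Cxcr2 and draw neutrophils out of the blood. All 4 that were tested rose (100%, against 57.2% of all tested genes), and the other one, Cxcl15, stayed under the filter. They lie together on chromosome 5 (GRCm38, GENCODE annotation): Cxcl5 at chr5:90759360-90761624, Cxcl3 at chr5:90786103-90789600, Cxcl1 at chr5:90891241-90893115 and Cxcl2 at chr5:90903871-90905938. The stretch just upstream of 3 of them, and of Ccl20, holds matches to the NF-kappaB form GGGNNTTTCC, searched on both strands in RefSeq promoters (250 bases before to 50 after each start, GRCm38.p6). It occurred in 6 of the 45 members with a promoter entry, and in 1.63% of all 32851 windows (1.89% of 27025 genes). The 4 stretches are shown to set 3 neutrophil ligands that rose beside Ccl20, which holds the same form and did not pass. They are on the plus strand, with the matching bases in capitals:
Cxcl1 (chr5:90891116-90891223): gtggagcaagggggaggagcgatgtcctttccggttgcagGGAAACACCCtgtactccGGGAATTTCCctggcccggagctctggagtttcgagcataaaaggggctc
Cxcl2 (chr5:90903762-90903870): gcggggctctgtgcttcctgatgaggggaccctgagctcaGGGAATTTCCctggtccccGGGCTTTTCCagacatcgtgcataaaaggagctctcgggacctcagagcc
Cxcl3 (chr5:90785988-90786077): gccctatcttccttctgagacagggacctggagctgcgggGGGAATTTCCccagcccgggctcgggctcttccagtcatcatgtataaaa
Ccl20 (chr1:83116646-83116735): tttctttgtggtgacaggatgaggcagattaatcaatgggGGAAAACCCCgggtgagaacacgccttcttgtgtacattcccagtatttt
Cxcl1 and Cxcl2 hold 2 matches each, and Cxcl3 and Ccl20 hold 1. The remaining matches were upstream of Ccl9 and Ccr3. A match is a string of letters and not a measured binding site. An interferon response form, GAAANNGAAA, was found in 3 of the 45, Cxcl10, Cxcl14 and Ccl19, and in 3.44% of windows; no gene held both forms. The members with no promoter entry include Ccl2, Ccl4, Ccl5, Ccl7, Ccl11, Ccl21c, Ccl24, Ccl26, Ccr7, Ccr10, Cxcl5, Cxcl11, Cxcl16, Cxcl17 and Cxcr5.

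Cxcl5 read 14.5, 19.0, 15.8, 8.19 and 19.1 FPKM in adjacent libraries 1 to 5, and 83.1, 53.1, 121.7, 100.2 and 63.8 FPKM in tumours 1 to 5. The groups were far apart. Its mean went from 15.3 ± 4.46 to 84.4 ± 27.6 FPKM (5.51-fold), and the log2 change was 2.38 with an SE of 0.27 (limma adjusted p = 3.61e-05). Cxcl3 read 0.73, 0.64, 0.76, 0.55 and 2.81 FPKM in adjacent tissue against 5.81, 4.58, 17.7, 12.3 and 12.1 FPKM in tumours. Adjacent 5 sat closest to the tumours without reaching them. The mean was 9.56-fold higher, and the change was 2.41 (SE 0.36, limma adjusted p = 0.000168). Cxcl2 read 1.45, 2.68, 3.38, 2.05 and 14.1 FPKM beside tumours of 16.6, 5.58, 48.5, 39.1 and 29.5 FPKM. Tumour 2 fell below adjacent 5, so the groups overlapped. The change was 2.38 (SE 0.61, limma adjusted p = 0.00485), or 5.90-fold in means. Cxcl1, named after its values were seen, gave the same picture: adjacent 3.2, 3.33, 4.25, 4.03 and 16.2 FPKM, and tumours 16.1, 14.0, 38.5, 29.8 and 46.1 FPKM, with a change of 2.16 (SE 0.45, limma adjusted p = 0.00127).

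Cxcr2, the receptor of these ligands, rose with them. It read 1.11, 1.32, 1.2, 1.33 and 2.78 FPKM in adjacent tissue and 2.79, 3.50, 5.57, 5.50 and 7.29 FPKM in tumours, so the lowest tumour lay just above adjacent 5. The change was 1.20 (SE 0.23, limma adjusted p = 0.000764), and 0.72 after quantile normalization. Cxcr1 stayed under the filter, at 0 to 0.15 FPKM against 0.19 to 0.68 FPKM. Adjacent 5 stood above the other adjacent libraries for Cxcl1, Cxcl2, Cxcl3 and Cxcr2, and without it their changes were 2.53, 2.82, 2.65 and 1.35. Of 8 tested neutrophil markers 7 rose (87.5%, against 57.2% of all tested genes) and 1, Ly6g, fell (12.5%, against 19.3%). S100a9, an abundant neutrophil protein, read 65.8 FPKM in adjacent 5, against 3.33 to 10.1 FPKM in the other adjacent libraries and 49.1 to 204.8 FPKM in tumours. The summed markers were 103.4 to 353.0 FPKM in adjacent tissue and 179.0 to 465.4 FPKM in tumours, with Ly6g, at 91.6 to 262.4 FPKM, most of the adjacent sum. Elane and Mpo, granule proteins of neutrophil precursors, were at or near 0. The part of these markers in the ligand result was not tested.

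**Figure D3:**
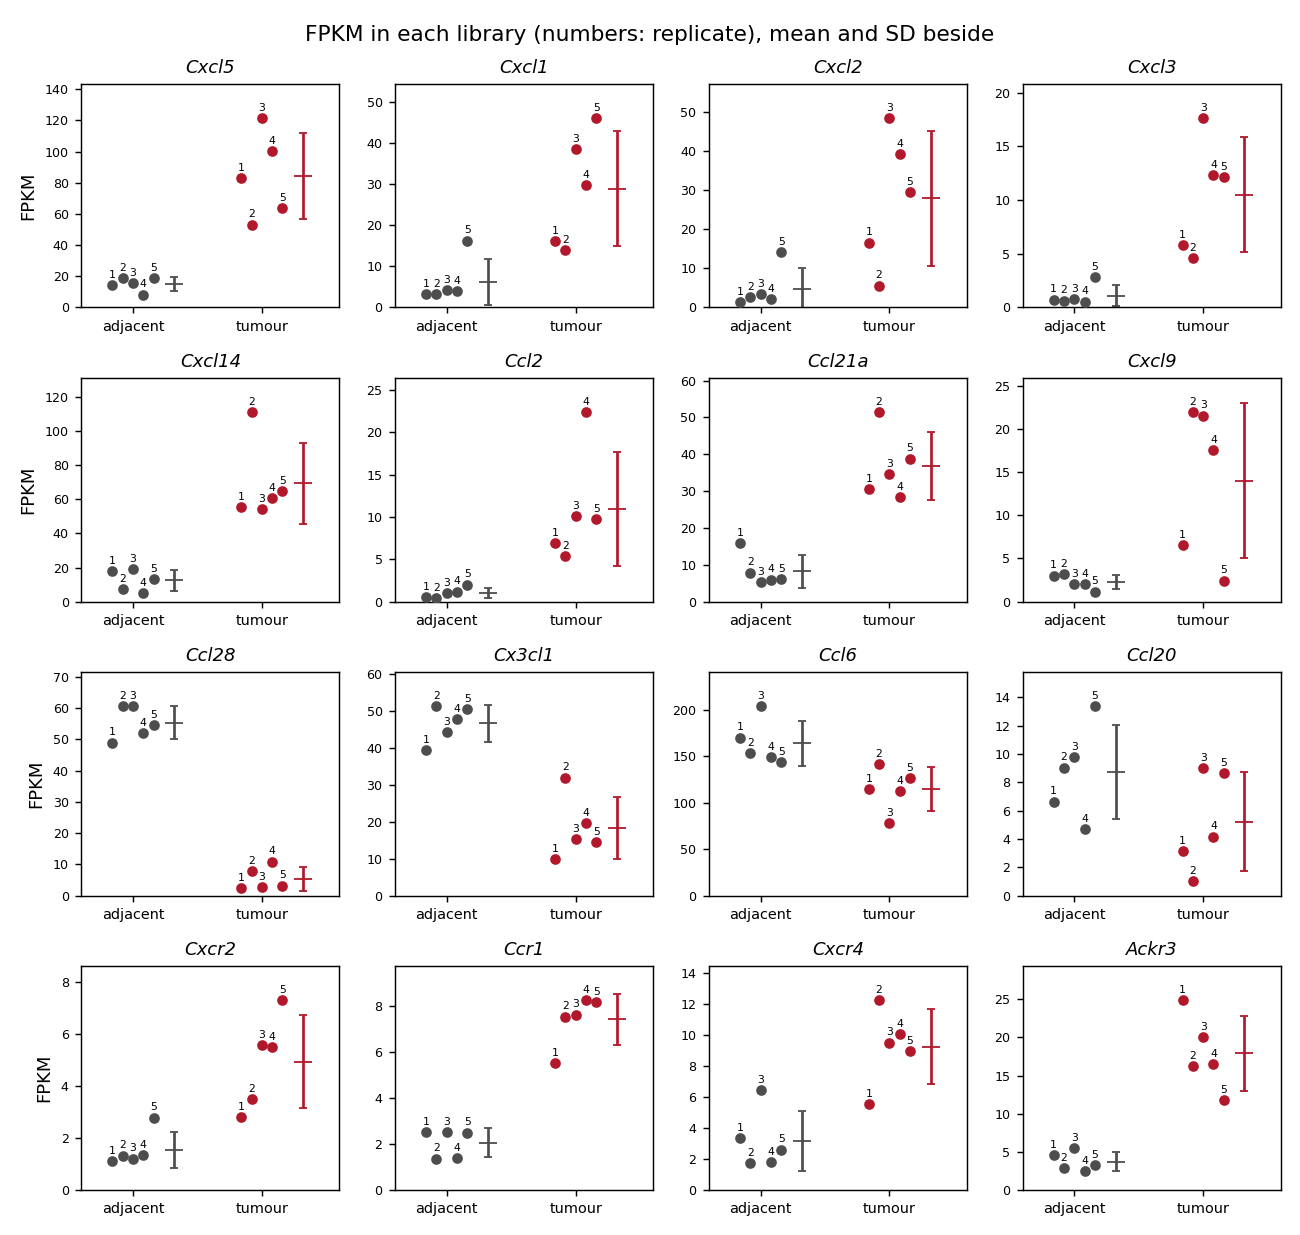
FPKM of 16 chemokine and receptor genes in each library, with numbers for the replicate and a mean with SD beside each group (SD bars are cut at 0). Ccl28 and Cx3cl1 tumour points all lie under the adjacent points, while Cxcl5, Ccl2 and Ackr3 tumour points all lie above.

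Of the interferon-inducible ligands, 1 of 2 tested rose (50%, against 57.2% of all tested genes). Cxcl9, which draws Cxcr3-bearing T and NK cells, read 3.00, 3.21, 2.01, 2.04 and 1.15 FPKM in adjacent tissue and 6.58, 21.96, 21.5, 17.6 and 2.42 FPKM in tumours. Tumour 5 stayed in the adjacent range, and tumours 2, 3 and 4 were the highest. The change was 1.91 (SE 0.50, limma adjusted p = 0.00545). Cxcl10, its neighbour on chromosome 5, read 4.04, 8.49, 2.53, 4.87 and 2.91 FPKM beside 4.61, 18.4, 18.7, 29.3 and 2.95 FPKM, and its change of 1.21 did not pass (SE 0.55, limma adjusted p = 0.0680). It passed when tumour 1, adjacent 2 or tumour 5 was left out, at 1.49, 1.43 and 1.61. Cxcr3 stayed under the filter, at 0.624 FPKM in adjacent tissue and 1.05 FPKM in tumours on average. Cxcl11, annotated as a polymorphic pseudogene, was under 0.6 FPKM in every library. Ifng was under the filter too, and Irf1, a target of that cytokine, fell by 0.71 on the log2 scale.

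Other CXC ligands held the third most abundant tumour chemokine by mean FPKM. Cxcl14, a homeostatic chemokine made by epithelium and stroma, read 18.0, 7.35, 19.1, 5.15 and 13.0 FPKM in adjacent tissue and 55.7, 111.4, 54.4, 61.0 and 65.0 FPKM in tumours. No library of 1 group reached the other, and tumour 2 was the highest. The change was 2.47 (SE 0.34, limma adjusted p = 0.000103), or 5.56-fold in means. Cxcl16, a membrane-anchored ligand for Cxcr6, read 13.2, 13.4, 12.7, 8.65 and 15.0 FPKM in adjacent tissue and 23.5, 41.0, 28.3, 27.5 and 23.3 FPKM in tumours. It rose without overlap, from 12.6 ± 2.35 to 28.7 ± 7.20 FPKM, a change of 1.12 (SE 0.17, limma adjusted p = 0.000164). Of its exon bases 18.3% overlap Zmynd15 on the opposite strand, and the strand setting of the counting is not stated in the labels. Cxcl12, the stromal ligand of Cxcr4, was level, from 10.9 ± 3.64 to 12.7 ± 7.87 FPKM (change 0.09, SE 0.35, limma adjusted p = 0.821), and its sign turned with the medians subtracted (-0.24). Cxcl13, which organises B cell follicles, was 5.33 ± 3.60 and 3.46 ± 1.04 FPKM with a change of -0.40 (limma adjusted p = 0.261), though it passed as lower after quantile normalization, at -0.88.

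The receptors of Cxcl12 differed from their ligand. Cxcr4 read 3.32, 1.73, 6.44, 1.81 and 2.60 FPKM in adjacent tissue and 5.51, 12.2, 9.49, 10.1 and 8.93 FPKM in tumours. Tumour 1 was within the adjacent range. Its change was 1.36 (SE 0.28, limma adjusted p = 0.00121). Ackr3, which takes up Cxcl12 without G-protein signalling, read 4.58, 2.81, 5.44, 2.48 and 3.2 FPKM beside 24.9, 16.3, 20.1, 16.5 and 11.8 FPKM. All tumours were above all adjacent libraries by a wide gap, and the mean was 4.84-fold higher, with a change of 2.01 (SE 0.21, limma adjusted p = 2.73e-05). Cxcr6 read 1.68, 0.85, 1.24, 0.72 and 1.14 FPKM beside 2.48, 5.62, 1.82, 1.70 and 1.76 FPKM, with tumour 2 well above the others. It rose by 0.71 (SE 0.24, limma adjusted p = 0.0205). Its call was lost with the medians subtracted (0.38) and after quantile normalization (0.27).

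Of 9 tested inflammatory CC ligands, 5 rose (55.6%, close to the 57.2% of all tested genes), 1 fell and 3 did not pass. Ccl2, the main Ccr2 ligand that draws monocytes, read 0.55, 0.41, 1.02, 1.19 and 2.00 FPKM in adjacent tissue and 6.92, 5.34, 10.1, 22.4 and 9.76 FPKM in tumours. Its mean was 10.5-fold higher, with a change of 2.45 (SE 0.33, limma adjusted p = 9.29e-05) and no overlap. Ccl7, which also binds Ccr2, read 0.78, 1.53, 1.08, 1.04 and 0.66 FPKM beside 3.77, 2.22, 4.03, 12.9 and 3.93 FPKM. Its change was 1.48 (SE 0.33, limma adjusted p = 0.00195), and tumour 4 held the highest value of both ligands. Ccl3, a ligand of Ccr1, read 0.51, 1.25, 0.38, 0.28 and 1.23 FPKM beside 3.43, 1.24, 6.95, 4.05 and 3.98 FPKM, so tumour 2 alone lay in the adjacent range. It rose by 1.44 (SE 0.31, limma adjusted p = 0.00144). Ccl4, a macrophage inflammatory protein, and Ccl12, which binds Ccr2, rose by 1.14 and 1.11 with no overlap between groups. Ccl3, Ccl4 and Ccl12 averaged 0.73, 0.49 and 0.81 FPKM in adjacent tissue and passed the filter only through the tumours. For these genes the filter itself favours a rise.

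Ccl6 went the other way. It read 170.1, 153.3, 204.2, 148.9 and 143.9 FPKM in adjacent tissue and 114.9, 141.5, 78.1, 113.0 and 127.0 FPKM in tumours. The lowest adjacent library exceeded the highest tumour by little. The change was -0.53 (SE 0.15, limma adjusted p = 0.00931) and -0.86 with the medians subtracted. Ccl6 lies at chr11:83587882-83593087, and its neighbours among the members are Ccl9 and Ccl3, whose changes were 0.57 and 1.44. Ccl9 (limma adjusted p = 0.0997) and Ccl8 (0.73, limma adjusted p = 0.131) did not pass, and leaving out tumour 3 made Ccl9 pass at 0.75. Ccl5, made by T and NK cells, was 5.23 ± 2.71 and 6.51 ± 6.85 FPKM, with 18.3 FPKM in tumour 2 against 1.89 to 6.66 FPKM in the other tumours. Its change was -0.03 (limma adjusted p = 0.965). Without tumours 2 and 4 together it was -0.75 and passed as lower.

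Receptors of these ligands rose. Ccr1 read 2.52, 1.36, 2.51, 1.37 and 2.50 FPKM in adjacent tissue and 5.52, 7.55, 7.64, 8.27 and 8.17 FPKM in tumours. The groups were well separated, with a tumour mean of 7.43 ± 1.11 FPKM, and the change was 1.48 (SE 0.16, limma adjusted p = 2.75e-05). Ccr2 rose by 1.01 (SE 0.24, limma adjusted p = 0.00275), with 7.64 FPKM in tumour 2 and 2.56 to 3.69 FPKM in the others, and its call was lost after quantile normalization (0.54). On chromosome 9 both genes lie near Ccr3, which was at or near 0. Of 10 macrophage and monocyte markers 9 rose (90%, against 57.2% of all tested genes). Their sum was 104.2 to 296.6 FPKM in adjacent tissue and 595.2 to 1035 FPKM in tumours, highest in tumour 2. The part of these markers in the receptor result was not tested.

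Ligands of type 2 immunity rose in 2 of 3 tested (66.7%, against 57.2% of all tested genes), a share of few genes. Ccl17, a dendritic cell product that binds Ccr4, read 1.93, 0.86, 2.31, 0.63 and 0.57 FPKM in adjacent tissue and 3.65, 13.0, 4.22, 4.45 and 3.71 FPKM in tumours, with a change of 1.51 (SE 0.34, limma adjusted p = 0.00193). Ccl22, which shares that receptor, read 2.25, 1.69, 2.36, 0.71 and 1.03 FPKM beside 4.19, 17.2, 3.52, 4.82 and 2.59 FPKM. Tumour 2 was the highest for both, and all tumours were above all adjacent libraries. Ccl22 changed by 1.29 (SE 0.40, limma adjusted p = 0.0134), by 0.80 without tumours 2 and 4 together, and by 0.96 with the medians subtracted and 0.83 after quantile normalization, where it did not pass. Ccl11, the eotaxin of tissue eosinophils, was 4.01 ± 2.05 and 7.65 ± 4.64 FPKM and did not pass (0.71, limma adjusted p = 0.109), but did without tumour 1 (0.95). Ccr4, Ccr8 and Ccr3 averaged under 0.6 FPKM in both groups. None of the 4 eosinophil markers reached the filter, and their sum was at most 4.03 FPKM.

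Mucosal and lymphoid CC ligands held the largest fall. Ccl28, made by the epithelium of the colon and known to attract IgA-secreting cells that bear Ccr10, read 49.0, 60.7, 60.5, 52.1 and 54.6 FPKM in adjacent tissue. In tumours it read 2.41, 7.79, 2.67, 10.9 and 3.24 FPKM. The adjacent libraries were close together and every tumour was far below them. Its mean was 10.2-fold lower, with a change of -3.32 (SE 0.33, limma adjusted p = 2.35e-05). Over the colon epithelium markers the sum was 9249 to 11984 FPKM in adjacent tissue and 3901 to 7120 FPKM in tumours. The part of epithelial RNA in the fall of Ccl28 was not tested. Ccr10 read 2.07, 1.23, 2.46, 1.81 and 1.86 FPKM beside 0.65, 3.57, 0.59, 1.10 and 1.14 FPKM; tumour 2 alone was above adjacent tissue. Its change was -0.36 (limma adjusted p = 0.228), which did not pass. It passed as lower with the medians subtracted (-0.69), after quantile normalization (-0.76) and without tumour 2 (-0.62). Jchain, made by plasma cells, was 452.1 FPKM in tumour 2 against 27.5 to 130.3 FPKM in the other tumours. Of 5 tested B and plasma cell markers none rose and 2 fell (40%, against 19.3% of all tested genes). Their sums were 121.6 to 414.4 FPKM in adjacent tissue and 29.9 to 490.3 FPKM in tumours.

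Ccl21a, the lymphatic ligand of Ccr7, rose the most among the mucosal and lymphoid set. It read 15.9, 7.86, 5.27, 5.95 and 6.09 FPKM in adjacent tissue and 30.5, 51.5, 34.7, 28.4 and 38.8 FPKM in tumours, a change of 2.11 (SE 0.27, limma adjusted p = 6.34e-05). Ccl21c read 2.4, 1.02, 2.7, 0.52 and 0.76 FPKM beside 6.24, 10.3, 6.54, 5.75 and 5.32 FPKM, and rose by 1.72 (SE 0.27, limma adjusted p = 0.000188). Tumour 2 was the highest for both. Ccl21a, Ccl21b and Ccl21c are nearly identical copies, and Ccl21b was listed at 0 in every library, so how reads were shared among them is uncertain. Ccl27a, a Ccr10 ligand, read 4.37, 2.61, 4.0, 2.98 and 3.61 FPKM beside 6.47, 5.33, 6.32, 7.35 and 8.36 FPKM. It rose by 0.79 (SE 0.14, limma adjusted p = 0.000397) and shares that limit with Ccl27b. The rise was 0.45 with the medians subtracted and 0.30 after quantile normalization, and passed in both. All 8 endothelial markers rose (100%, against 57.2% of all tested genes), with sums of 18.7 to 38.7 FPKM and 122.5 to 188.6 FPKM. Prox1, Lyve1 and Flt4 were listed among them as markers of lymphatic vessels. Prox1 alone, at 53.1 to 137.7 FPKM, made up much of the tumour sum, while Lyve1 read 3.46 to 8.21 FPKM and Flt4 2.25 to 3.56 FPKM in tumours. Which cells held the Prox1 RNA was not tested. All 8 fibroblast markers rose too (100%), from sums of 80.7 to 201.9 FPKM to sums of 607.2 to 1010 FPKM. Their part in the Ccl21a and Cxcl14 results was not tested.

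Ccr7, the Ccl21 receptor of migrating dendritic cells and naive T cells, read 1.5, 1.02, 1.42, 0.41 and 0.49 FPKM in adjacent tissue and 1.91, 9.35, 2.44, 3.61 and 1.25 FPKM in tumours. The groups overlapped, and tumour 2 was far above the rest. The change was 1.08 (SE 0.37, limma adjusted p = 0.0217). Ccr7 averaged 0.97 FPKM in adjacent tissue and passed the filter only through the tumours. The call was lost without adjacent 4 (0.97), without tumours 2 and 4 together (0.56), with the medians subtracted (0.75) and after quantile normalization (0.70). Of 3 tested dendritic cell markers all rose (100%, against 57.2% of all tested genes), with sums of 4.79 to 9.68 FPKM and 13.5 to 32.9 FPKM. Batf3, one of them, averaged 0.826 FPKM in adjacent tissue and passed the filter only through the tumours. Of 7 tested T cell markers 3 rose (42.9%, against 57.2%). Of those rises, Cd5 and Foxp3 averaged 0.716 and 0.494 FPKM in adjacent tissue and passed the filter only through the tumours. The T cell sum was 38.7 FPKM in tumour 2 against 13.2 to 20.5 FPKM in the other tumours. Ccl20, an epithelial ligand of Ccr6, was 8.71 ± 3.30 and 5.21 ± 3.49 FPKM, a change of -0.80 (SE 0.43, limma adjusted p = 0.111), and passed as lower with the medians subtracted (-1.13). Ccr6 was under the filter. Ccl25, the small-intestinal ligand of Ccr9, was level at 2.31 and 2.35 FPKM (0.03, limma adjusted p = 0.879), its sign turned with the medians subtracted (-0.30), and after quantile normalization it passed as lower (-0.45, limma adjusted p = 0.037). Ccr9 was under the filter.

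Fractalkine and its receptor moved in opposite directions. Cx3cl1, made by epithelium and endothelium and tethered to the cell surface, read 39.4, 51.4, 44.3, 47.9 and 50.6 FPKM in adjacent tissue and 9.96, 32.1, 15.4, 19.6 and 14.6 FPKM in tumours. The highest tumour, number 2, was under the lowest adjacent library. The change was -1.40 (SE 0.24, limma adjusted p = 0.000412), or 2.55-fold lower. Cx3cr1, which marks resident gut macrophages, read 2.42, 1.53, 3.06, 0.86 and 2.37 FPKM beside 5.59, 9.34, 7.02, 6.70 and 5.75 FPKM, a rise of 1.40 (SE 0.21, limma adjusted p = 0.000148) with no overlap, or 0.93 after quantile normalization. Xcl1, a product of NK and T cells, read 1.51, 1.28, 0.95, 1.56 and 2.27 FPKM beside 0.37, 1.58, 0.52, 0.39 and 0.57 FPKM. Its change was -0.60 (SE 0.20, limma adjusted p = 0.0165) and -0.93 with the medians subtracted. Xcl1 passed the filter only through adjacent tissue, tumour 2 was above 4 of the 5 adjacent libraries, and 18.7% of its exon bases overlap an antisense transcript. Xcr1, its receptor, was under the filter.

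Of the atypical receptors, Ackr3 and Ackr1 were tested and both rose, although Ackr1 passed the filter only through the tumours. Ackr1, which carries chemokines across venular endothelium, read 0.97, 0.48, 1.26, 0.73 and 0.71 FPKM beside 1.54, 2.54, 2.25, 3.04 and 3.91 FPKM. It rose by 0.98 (SE 0.18, limma adjusted p = 0.000554) with no overlap, by 0.65 with the medians subtracted and by 0.54 after quantile normalization. It shares 25.7% of its exon bases with Cadm3 on the same strand. Ackr2, a scavenger of inflammatory CC ligands, stayed under the filter at 0.08 to 0.24 FPKM in adjacent tissue and 0.84 to 1.74 FPKM in tumours, a 6.78-fold higher mean with no overlap. Ackr4, which removes Ccl19 and Ccl21, averaged 0.75 and 1.11 FPKM. The other untested members, among them Ccl1, Ccl19, Ccl24, Cxcl17 and Cxcr5, averaged at most 1.26 FPKM in either group, and Ccl26, like Ccl21b, was listed at 0 throughout.

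**Figure D4:**
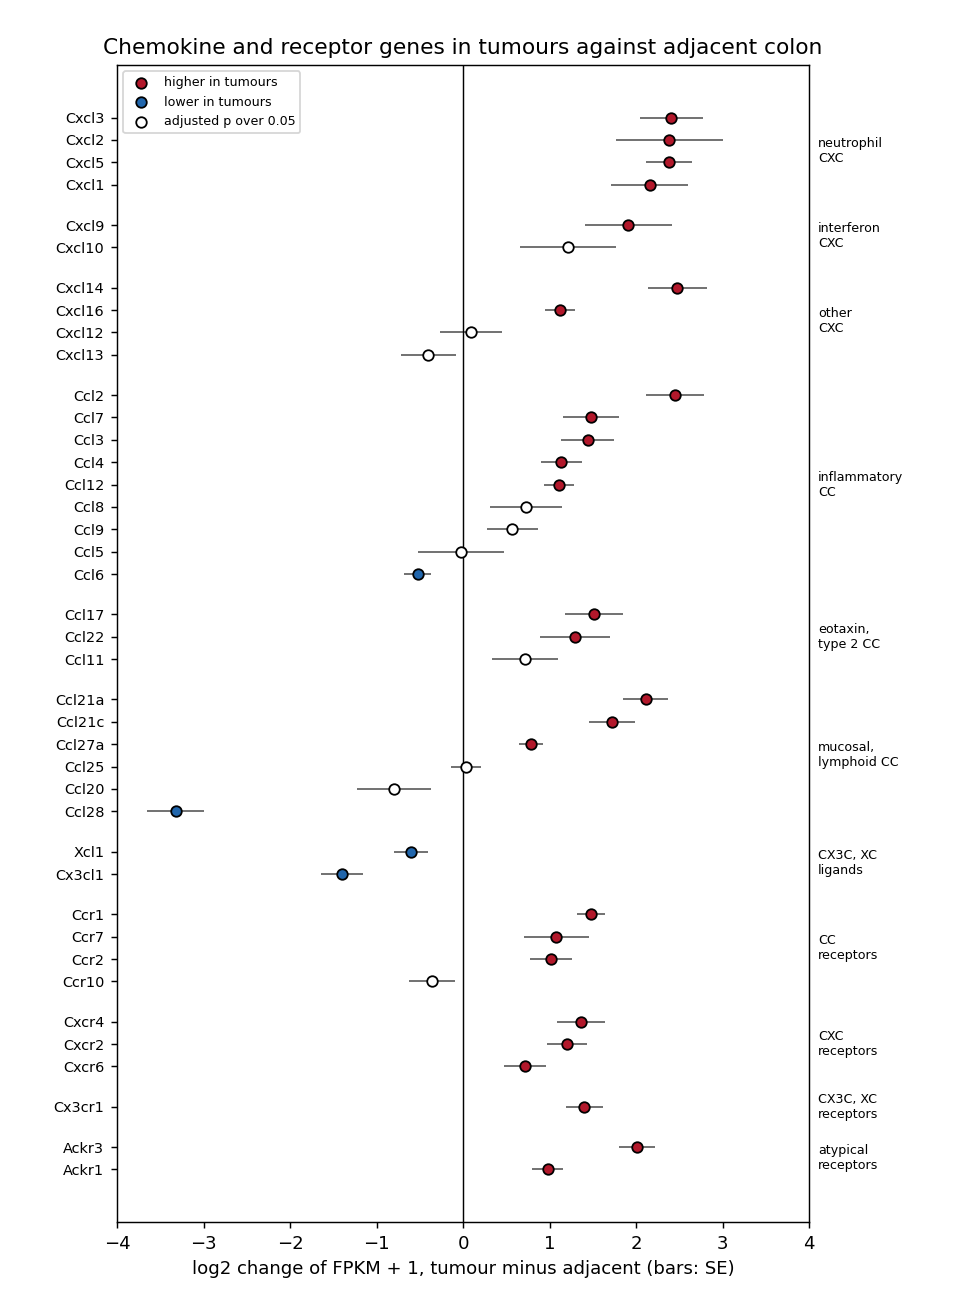
Log2 change with SE (tumour minus adjacent, log2(FPKM + 1)) of 40 of the 41 tested members by role, red for higher, blue for lower and white for an adjusted p over 0.05. The receptors shown all lie to the right of 0 except Ccr10, and Ccl28 lies furthest to the left.

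Other genes of the chemokine system are given by list. Of 7 related family genes outside the set all rose (100%, against 57.2% of all tested genes). They were led by Pf4 (1.75) and Ppbp (1.59), which are platelet chemokines. Ppbp averaged 0.294 FPKM in adjacent tissue and passed the filter only through the tumours. Of 23 receptor signalling genes 15 rose (65.2%, against 57.2% of all tested genes), 3 fell and 5 did not pass. Their median was 0.72, beside 0.35, the largest rises being Rgs2 (1.58) and Arrb2 (1.46), which limit receptor signalling, and the largest falls Ptk2b (-1.01) and Plcb3 (-0.84). Of 5 tested proteases that cut chemokines 4 rose (80%, against 57.2%), led by Mmp9 (2.64) and Mmp12 (2.50). Mmp8, also among these rises, averaged 0.204 FPKM in adjacent tissue and passed the filter only through the tumours. Dpp4, which trims several ligands, was the 1 that fell (20%, against 19.3%), by 0.42. Of 12 tested cytokines and regulators upstream of chemokine genes 7 rose (58.3%) and 2 fell (16.7%), close to the 57.2% and 19.3% of all tested genes. Il1b, an inducer of neutrophil chemokines, rose by 2.59 and read 3.00, 5.50, 6.70, 3.84 and 14.9 FPKM in adjacent tissue and 20.0, 29.1, 62.0, 67.1 and 43.5 FPKM in tumours, and Il1a rose by 1.71. Adjacent 5 again held the highest adjacent value. Il1a averaged 0.976 FPKM in adjacent tissue and passed the filter only through the tumours. Il6, Il17a and Il22 were under the filter. Il6 averaged 0.08 FPKM in adjacent tissue and 1.57 FPKM in tumours, and Il17a 0.25 and 1.01 FPKM. Neither overlapped between groups, while Il22 did. These lists were chosen with earlier results of these data known.

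Members did not rank the tumours the same way. Tumour 2 was the highest of the tumours for 24 of 41 members (58.5%), including 7 of 11 receptors, against 23.6% of all tested genes, and the lowest for 10 (24.4%), against 45.7% of all tested genes. Those 10 include Cxcl1, Cxcl2, Cxcl3, Cxcl5, Ccl2, Ccl3, Ccl7 and Ccl20, whereas Ccl17, Ccl22, Cxcl12, Cxcl14, Ccr7 and Cxcr6 were highest there. Tumour 2 also held the highest tumour sums of macrophage, dendritic, T, NK, B and plasma cell markers, and of fibroblast (1010 FPKM) and colon epithelium (7120 FPKM) markers. Their part in its chemokine values was not tested. Among adjacent libraries, number 3 was the highest for 17 members (41.5%, against 22.0% of all tested genes) and number 4 the lowest for 19 (46.3%, against 25.8%). Number 5 was the highest for 11 (26.8%, close to the 29.8% of all tested genes), among them Cxcl1, Cxcl2, Cxcl3, Cxcl5 and Cxcr2. Without tumours 2 and 4 together, 26 members rose and 6 fell.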

How the data were processed

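Gene-level FPKM was measured by poly(A) RNA-seq (oligo-dT enrichment, TruSeq v2, Illumina sequencing, per the labels' protocols) and deposited by the authors as 1 table. The submitters' processing notes list the build mm10 and, with no role for any, Cufflinks 2.2.1, TopHat2 2.1.0, Salmon 0.8.2, RSEM 1.2.15, DESeq2 1.14.1 and edgeR 3.16.5. Which of them made the FPKM values is not stated there. The table held 24525 genes and 10 samples. Groups came from the labels. The 13016 genes whose mean across the 10 libraries reached 1 FPKM were tested on log2(FPKM + 1) with limma 3.58.1 in R 4.3.3 (trend and robust), two-sided, adjusted by Benjamini-Hochberg over all of them at 0.05; tests were checked on simulated data. Fragment depth could be estimated only weakly, from the steps between low values, at 20800000 to 27950000. The members, lists and role groups were chosen with earlier results of these data known. Named per role were up to 3 of the largest rises and 3 of the largest falls past the threshold, the most abundant member and partner receptors; Cxcl1 and the members that did not pass were added after their values were seen. Alternatives were pseudocounts of 0.1 and 5, no filter or 5 FPKM, 2 scalings, a fit without trend, the replicate block and leaving out libraries. The values of 1 member are not reported here, though it is in the counts. Promoter letters came from RefSeq tables.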

Additional observations from a re-analysis of the deposited data

Results flagged for a closer look

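In 10 of 82 groups of 5 libraries (41 tested members in adjacent tissue and in tumours), the highest or lowest library stood apart from the rest by more than Dixon's 95% critical value of 0.71 on the log2(FPKM + 1) scale. Chance gives about 1 in 20 groups. Tumour 2 was the library that stood apart in 5 of them. It was the highest tumour for Ccl17 at 13.03 FPKM (others 3.65 to 4.45), Ccr10 at 3.57 (others 0.59 to 1.14), Cxcl14 at 111.35 (others 54.4 to 64.98), Cxcr6 at 5.62 (others 1.70 to 2.48) and Xcl1 at 1.58 (others 0.37 to 0.57). Adjacent 5 was the highest adjacent library for Cxcl1 at 16.24 FPKM (others 3.2 to 4.25), Cxcl3 at 2.81 (others 0.55 to 0.76) and Cxcr2 at 2.78 (others 1.11 to 1.33). Tumour 1 was the lowest tumour for Ccr1 at 5.52 FPKM (others 7.55 to 8.27). Tumour 5 was the lowest tumour for Cxcl13 at 1.64 FPKM (others 3.72 to 4.21).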

How the results depend on the processing

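Of the 31 called members, 27 kept their call and direction in every setting in which they were tested. Of the 31, 15 were tested in all 19 settings, and the other 16 were not tested with the 5 FPKM filter. The count of 27 higher was 31 with no filter and 12 of 22 tested with a filter at 5 FPKM, and 26 to 29 when 1 library was left out. The count of 4 lower was 8 after quantile normalization, 6 with the medians subtracted, 3 with the 5 FPKM filter and 4 to 5 when 1 library was left out. Like numbers were not taken as pairs: the correlations of deviations were 0.022 to 0.422, with 3 of 5 over 0.1, and only in number 5 did both libraries correlate best with their own number. A fit with the replicate block gave 28 higher and 4 lower; there Cxcl10 passed at 1.21, and no other call changed. The size of the changes depended on the scale: 21 called members moved by over 1.5 times with a pseudocount of 5, 7 with 0.1, 11 after quantile normalization, 5 with the medians subtracted, 2 without tumours 2 and 4 together and 0 with any 1 library left out. Signs turned for members near 0: Ccl25 was -0.30 with the medians subtracted, -0.45 after quantile normalization, where it passed as lower, and -0.0882 to 0.12 when 1 library was left out. Ccl5 was 0.0425 with a pseudocount of 5 and -0.46 to 0.22 when 1 library was left out. Cxcl12 was -0.24 with the medians subtracted, -0.26 after quantile normalization, -0.39 without tumours 2 and 4 together and -0.19 to 0.28 when 1 library was left out. The cause was not tested. FPKM without counts limits what can be said of the 20 members under the filter.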
